A study of Mus musculus with 12 samples.

Results

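The genes considered here encode the machinery that takes the cap off mRNA: Dcp1a, Dcp2, Dcp1b, Edc3, Edc4 and Dcps. They were taken by gene symbol, as every probe set whose only symbol in the platform annotation was 1 of these 6, which gave 13 of the array's 45037 probe sets, and 6 of 18193 genes. The eggs were from CF1 mice and had matured in culture to arrest at metaphase of the second meiotic division (MII). As full-grown oocytes they had been injected with siRNA against Dcp1a, with siRNA against Dcp2, with a mixture of both, or with a control siRNA. Oocytes in all 4 groups were then kept in milrinone, which blocks the resumption of meiosis, for 20 h, and matured without it for 18 h. Each group had 3 independent biological replicates, each a pool of 30 eggs on 1 Affymetrix array. The siRNAs were commercial pools of several duplexes per gene, and mRNA was measured but not protein. The series asked what loss of the decapping factors during maturation does to the mRNA of the egg, and Dcp1a and Dcp2 are the genes it targeted.

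Removal of the 5′ cap commits an mRNA to degradation from its 5′ end. Dcp2 is the enzyme that cuts the cap, and it works with Dcp1, of which mammals have a pair of paralogs, Dcp1a and Dcp1b. Edc3 and Edc4 are enhancers of decapping: Edc4 is a large scaffold that brings Dcp1a and Dcp2 together, and Edc3 binds Dcp2 and the helicase Ddx6. Dcps acts elsewhere, on the capped fragment that remains after an mRNA has been degraded from its 3′ end. In mouse oocytes, which stop transcription before maturation, mRNAs of Dcp1a and Dcp2 are stored and translated as maturation proceeds.

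Values are intensities in arbitrary units on a linear scale, from a lowest value of 4.9, and a change is given as a log2 difference of group means. An intensity of 32, or 5 on the log2 scale, in at least 3 of the 12 arrays was required for testing, and 7 of the 13 probe sets passed. The targets' dim probe sets passed only through arrays that had not received the matching siRNA, so the filter favoured a difference there. Tests are from limma, fitted on all 11593 probe sets tested and all 12 arrays, with Benjamini-Hochberg adjusted p under 0.05 as a call. The median log2 change over all tested probe sets was 0.09 after Dcp1a siRNA, -0.11 after Dcp2 siRNA and -0.02 after both, each against control.

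Not all arrays resembled their own group most. Across the tested probe sets 4 of 12 arrays correlated best with an array of another group, namely all 3 control arrays and Dcp2 siRNA replicate 2. The strongest such cases were control replicate 1 (r = 0.988 with a Dcp1a siRNA array, 0.938 to 0.954 within its group) and Dcp2 siRNA replicate 2 (0.985, against 0.938 to 0.963). That Dcp2 siRNA array nevertheless had Dcp2 at the lowest value of the scale. Control replicate 1 had Dcp1a, by probe set 1433606_at, at 12427 units, the highest of all 12 arrays. Values are therefore also given below with these 2 arrays left out together, a choice made after the data were seen. All 11 oocyte markers on the array were above 32 units on every array. Their summed intensity was 159339 to 177400 after Dcp1a siRNA, 113276 to 148441 after Dcp2 siRNA and 168829 to 183409 after both, against 114170 to 152444 in control eggs. Among 11 markers of cumulus and granulosa cells on the array, 9 were below 32 units throughout, including Amh, Fshr, Inha and Inhba at 4.9. Their summed intensity was 2412 to 2496, 1730 to 2649 and 1282 to 1544, against 1593 to 2199 in control eggs, nearly all of it Nr5a2. Of these marker lists Zp2 and Zp3, which encode proteins of the zona pellucida, were called in the double knockdown against control (log2 changes 2.08 ± 0.42 and 2.14 ± 0.47, SE), and against Dcp1a siRNA alone (2.06 ± 0.42 and 1.71 ± 0.47). Zp2 was also called against Dcp2 siRNA alone (1.80 ± 0.42), and Nr5a2 was lower in the double knockdown than after Dcp1a siRNA (-0.81 ± 0.20; limma). Of all tested probe sets, the double knockdown had 6.62% called higher against control, 8.27% against Dcp1a siRNA and 6.12% against Dcp2 siRNA. Against Dcp1a siRNA 3.79% were called lower. The calls of Zp2 and Zp3 against control were lost without double knockdown replicate 2 (adjusted p = 0.0547 and 0.0749, limma), and that of Zp3 also without replicate 1 (0.0608). Zp2 against Dcp2 siRNA, and Zp3 and Nr5a2 against Dcp1a siRNA, were each lost in 5 of 12 such cases (adjusted p up to 0.132). With control replicate 1 and Dcp2 siRNA replicate 2 left out, only Zp2 against Dcp2 siRNA lost its call (0.081). The part of these markers in the results below was not tested.

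Dcp1a fell where its own siRNA had been injected, and Dcp2 read at the lowest values of the scale where its own had. By the brightest of its 3 probe sets, 1433606_at, Dcp1a had intensities of 1208, 589.3 and 1236 in eggs given Dcp1a siRNA and 517.7, 1233 and 622.3 in eggs given both siRNAs, against 12427, 5385 and 8083 in control eggs. No array of the injected groups came near a control array. Of the geometric mean of the controls, 7.23% to 15.2% was left on the arrays given Dcp1a siRNA and 6.35% to 15.1% on those given both. As a ratio of geometric means, 11.8% of the control level was left after Dcp1a siRNA (95% interval 6.22% to 22.2%) and 9.02% after both (4.77% to 17.1%). The log2 changes were -3.09 ± 0.42 (SE, n = 3 per group; adjusted p = 0.0319, limma) and -3.47 ± 0.42 (adjusted p = 0.000666, limma). Since each array holds a pool of 30 eggs, a partial loss in every egg and a complete loss in most cannot be told apart. The call in the double knockdown held when any single array was left out. That for Dcp1a siRNA alone held in 3 of the 12 cases, without control replicate 1, Dcp2 siRNA replicate 2 or double knockdown replicate 2, and adjusted p reached 0.218 in the other 9 (lowest 0.0553), while the log2 change stayed between -3.39 and -2.74. That call was also lost with no filter on dim probe sets, with values under 32 set to 32, with only the compared groups in the fit and with the replicate block (adjusted p = 0.402, 0.0801, 0.472 and 0.176, limma). Without control replicate 1 and Dcp2 siRNA replicate 2 together, the changes were -2.78 (adjusted p = 0.0172, limma) and -3.17 (adjusted p = 0.00187, limma).

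The other Dcp1a probe sets behaved differently from one another. The dim 1422131_at read 5.6, 5.2 and 5.6 after Dcp1a siRNA and 5.6 on all 3 arrays given both, against 36.6, 37.4 and 46.9 in control eggs. All treated arrays were thus close to the lowest value of the scale, and by this probe set the Dcp1a level was lower than control by at least 1.25-fold after either injection (adjusted p = 0.00378 and 0.000126, limma). It passed the filter on 4 arrays only, none of them given Dcp1a siRNA, so these p-values are a description, and with no filter the first was 0.0765. These bounds use 32 units as the lowest measurable level and allow for that floor only, not for spread among arrays. With values under 32 set to 32, neither call was made (adjusted p = 0.839 and 0.166, limma). By 1431933_a_at, Dcp1a read 304.6, 118.3 and 257.6 after Dcp1a siRNA and 214.7, 237.6 and 102.1 after both, against 3376, 277.9 and 25.9 in control eggs. The control arrays alone spanned a 130-fold range, and only 2 of the 11593 tested probe sets, counting this one, had a control SD as large (3.51 on the log2 scale). The treated arrays lay inside the control range and were much closer to each other. No change was called by this probe set, and the intervals ran from 5.75% to 916% and from 4.74% to 756% of control. Without control replicate 1 the log2 changes were 1.31 and 1.03, opposite in sign to the -0.46 and -0.74 with all arrays.

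**Figure D1:**
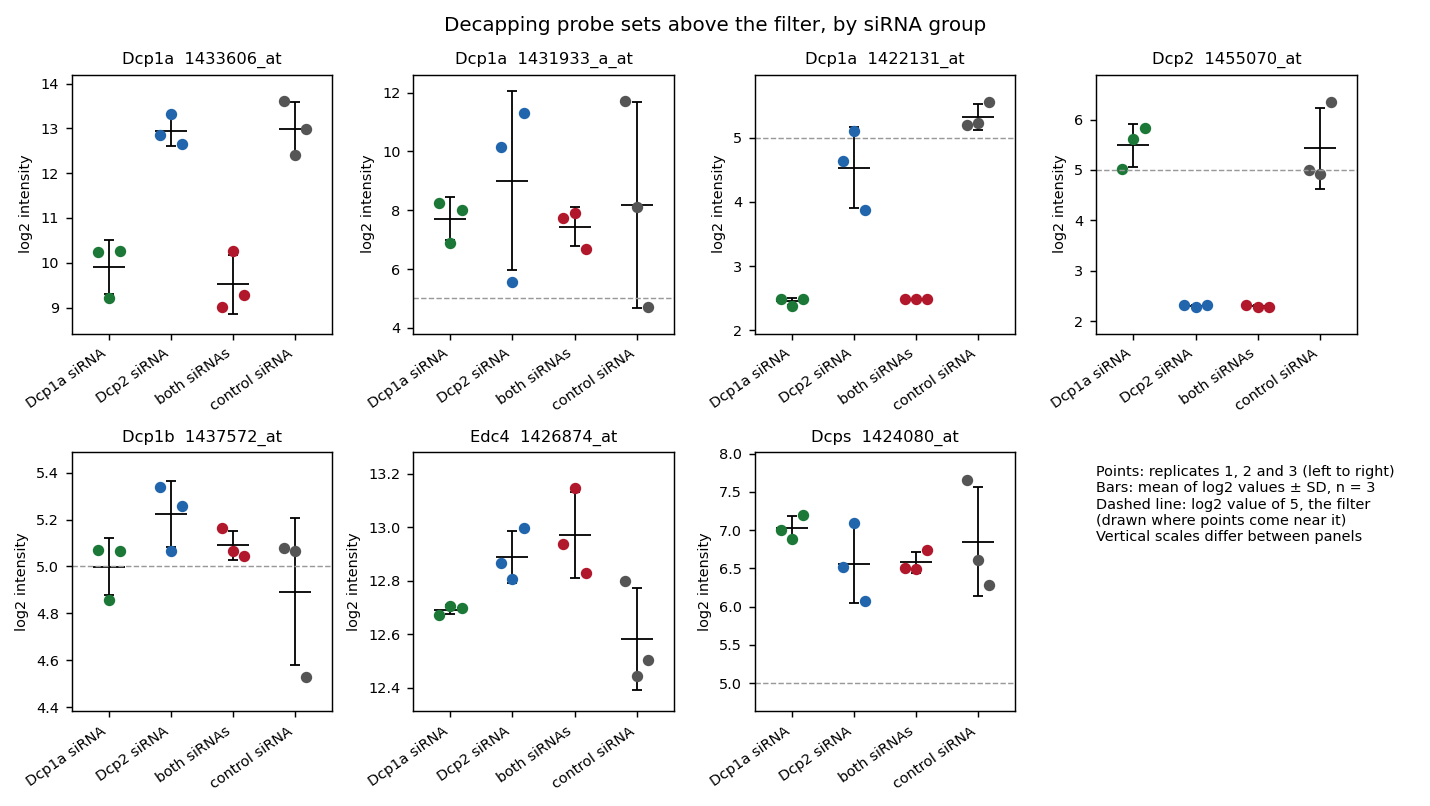
Intensity on the log2 scale (vertical axis, arbitrary units) of the 7 tested probe sets in each siRNA group (horizontal axis), with a point per array and bars for mean ± SD (n = 3); a dashed line marks log2 of 5 where points come near it. Dcp1a 1433606_at and 1422131_at lie below all control points in eggs given Dcp1a siRNA or both, Dcp2 1455070_at lies near 2.3 in eggs given Dcp2 siRNA or both, and the points of Dcp1a 1431933_a_at spread widely in the control and Dcp2 siRNA groups.

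Dcp2 was dim in eggs that had not received its siRNA. Its probe set 1455070_at read 5, 4.9 and 5 after Dcp2 siRNA and 5, 4.9 and 4.9 after both, against 32.2, 30.4 and 81.8 in control eggs. The 6 injected arrays sat at the bottom of the scale, while 2 of 3 control arrays were only just around the 32 units taken as measurable. With 32 units as the floor, the group means put Dcp2 at least 1.35-fold below control in each group. This bound rests mostly on control replicate 3, at 81.8, and does not allow for spread among arrays. The fitted changes, which take floor values as they stand, had adjusted p = 0.0152 after Dcp2 siRNA and 0.000378 after both (limma). The probe set passed the filter on 5 arrays, all without Dcp2 siRNA, so these p-values too are a description, and the size of the difference beyond the bound was not measurable. When values under 32 were set to 32, the adjusted p was 0.508 and 0.38 (limma). After Dcp2 siRNA alone the call was lost on leaving out Dcp1a siRNA replicate 2, Dcp2 siRNA replicate 1 or 3, or double knockdown replicate 1 (adjusted p = 0.0548, 0.129, 0.113 and 0.0538, limma). It was also lost with no filter and with only the compared groups in the fit (adjusted p = 0.161 and 0.691, limma). In the double knockdown the call held without any single array. Without control replicate 1 and Dcp2 siRNA replicate 2 together, the adjusted p was 0.00726 after Dcp2 siRNA and 0.00106 after both (limma). The other Dcp2 probe set, 1430150_at, read 4.9 on all 12 arrays and was not tested.

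Loss of one target was set against the level of the other. In eggs given Dcp1a siRNA, Dcp2 read 32.4, 49.2 and 57.1, within the range of the control arrays. That was 104% of control, with a 95% interval of 61.9% to 176% (adjusted p = 0.982, limma). Centring the arrays on their median turned the sign of this change (-0.0545, against 0.06 with the values as deposited, on the log2 scale). In eggs given Dcp2 siRNA, Dcp1a by 1433606_at read 7449, 10248 and 6397, again within the control range, at 96.6% of control (51.1% to 183%; adjusted p = 0.961, limma). Its sign turned too under median centring (0.13 against -0.05 on the log2 scale). By the dim probe set 1422131_at the picture was less clear, with 24.8, 34.4 and 14.6 units after Dcp2 siRNA, all below the lowest control value of 36.6. The groups did not overlap downward in 5.21% of all tested probe sets in this comparison. The bound was a difference of at least 1.22-fold, the fitted log2 change -0.79 ± 0.26 (SE; adjusted p = 0.425, limma), and without control replicate 1 and Dcp2 siRNA replicate 2 the change was called (-1.14, adjusted p = 0.0222, limma). The Dcp2 siRNA array left out was the one at 34.4, and those that remained, at 24.8 and 14.6, were under 32 units. This probe set passed the filter only on the control arrays and the array at 34.4, so that p-value is a description. By 1431933_a_at, Dcp1a read 1145, 47.2 and 2529 after Dcp2 siRNA, as scattered as in control eggs. No call was made (log2 change 0.83 ± 1.66, SE; adjusted p = 0.806, limma), but without the same 2 arrays the fitted change was 4.33 (adjusted p = 0.0241, limma), opposite in direction to that of 1422131_at. Those 2 arrays held the highest control value, 3376, and the lowest Dcp2 siRNA value, 47.2. Left were 1145 and 2529 against 277.9 and 25.9 in control eggs, so this change rests on which arrays were kept.

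No further fall of Dcp1a was detected when the second siRNA was added. Dcp1a by 1433606_at was at 76.7% of its level in eggs given only Dcp1a siRNA, with an interval of 40.6% to 145% (adjusted p = 0.554, limma). Dcp2 was at the bottom of the scale in both groups that received its siRNA, so no ratio can be given. Set against the single knockdown that spared the gene, the double knockdown had Dcp2 at least 1.41-fold lower than after Dcp1a siRNA (adjusted p = 0.000244, limma). The Dcp2 probe set passed the filter only on arrays without Dcp2 siRNA, among them all those given only Dcp1a siRNA. That p-value is therefore a description. With log2 values under 5 set to 5, this call was not made (adjusted p = 0.33, limma). In the double knockdown Dcp1a was at 9.34% of its level after Dcp2 siRNA (4.94% to 17.6%; adjusted p = 0.000681, limma). On the log2 scale the departure from the sum of the single changes was -0.33 ± 0.59 for Dcp1a by 1433606_at (SE; adjusted p = 0.96, limma). For 1422131_at and Dcp2, additivity could not be read, since they were at the floor wherever their own siRNA was injected.

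Among the 7 tested probe sets, those called were all of a targeted gene, and 2 of these, Dcp1a 1422131_at and Dcp2 1455070_at, had passed the filter only through arrays without the matching siRNA. After Dcp1a siRNA 2 were lower than control, in a comparison where 0.0518% of all tested probe sets were called in either direction and 0.0345% lower. After Dcp2 siRNA 1 was lower (0.0173% of all in either direction, the same share lower and 0% higher), and after both 3 were lower (8.72% in either direction, 2.1% lower). In the double knockdown 1 was lower than after Dcp1a siRNA (12.1% in either direction, 3.79% lower) and 2 were lower than after Dcp2 siRNA (6.37% and 0.25%). Of those 2, Dcp1a 1422131_at averaged under 32 units in both groups compared, so that call is a description. None of the 7 was called for a departure from additivity by limma's adjusted p (3.93% of all were), and 1 had an unadjusted p under 0.05 (11.6% of all), the floor-bound 1422131_at. The groups did not overlap for 2 of the 7 after Dcp1a siRNA, both lower (4.42% of all tested lower, 7.19% higher). After Dcp2 siRNA this held for 1 higher and 2 lower (2.17% and 5.21% of all), and after both for 1 higher and 3 lower (12.9% and 11.8%). The double knockdown had 1 higher and 2 lower against Dcp1a siRNA (21.5% and 27.1%), and 0 higher and 2 lower against Dcp2 siRNA (16.2% and 5.01%). The 3 comparisons with control share the same control arrays, so their changes are not independent of each other.

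**Figure D2:**
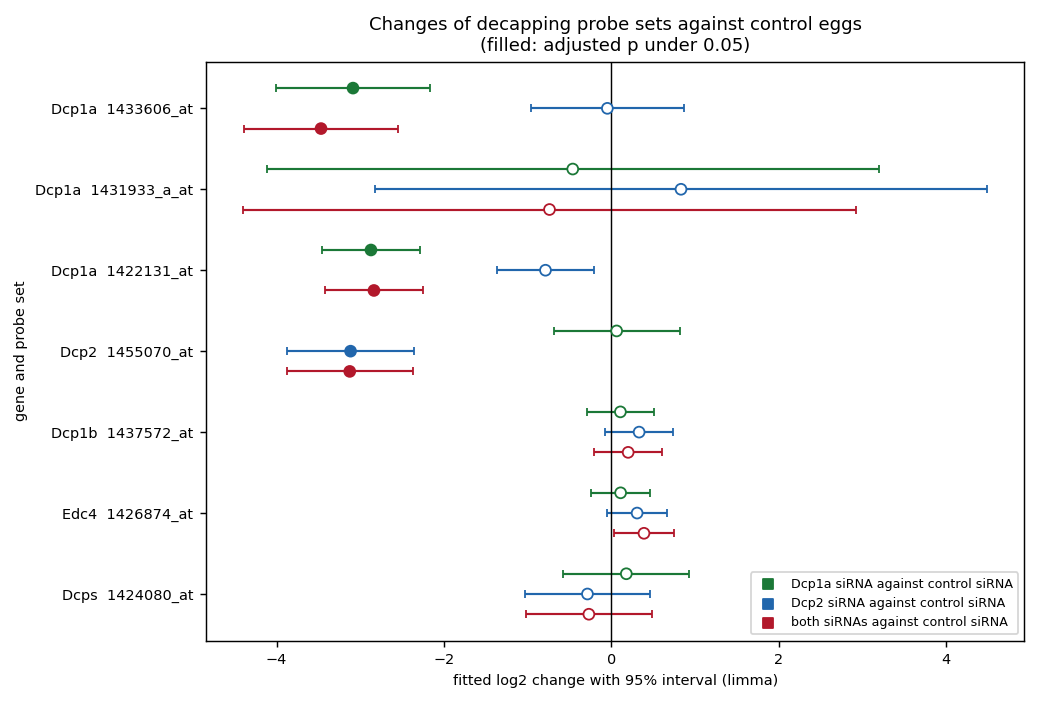
Fitted log2 change against control (horizontal axis) with 95% intervals from limma for the 7 tested probe sets (vertical axis) after Dcp1a siRNA, Dcp2 siRNA and both; filled points have adjusted p under 0.05. The filled points are all of Dcp1a or Dcp2, and those of Dcp1a 1422131_at and Dcp2 have treated arrays at the floor, so that their position does not measure the size of the difference. Dcp1b, Edc4 and Dcps lie between -0.29 and 0.39, with open points.

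The paralog Dcp1b, which can take the place of Dcp1a beside Dcp2, was near the measurable limit in all groups. Its brightest probe set, 1437572_at, read 33.6, 29 and 33.5 after Dcp1a siRNA, 40.5, 33.5 and 38.3 after Dcp2 siRNA and 35.8, 33.5 and 33 after both, against 33.8, 33.5 and 23.1 in control eggs. The groups overlapped, and the lowest value of all was that of control replicate 3. Against control the log2 changes were 0.11 ± 0.18, 0.33 ± 0.18 and 0.20 ± 0.18 (SE; adjusted p = 0.925, 0.431 and 0.479, limma). The intervals ran from 81.3% to 143% of control after Dcp1a siRNA, from 94.9% to 166% after Dcp2 siRNA and from 86.7% to 152% after both. At so low a signal a change may be understated. The sign after Dcp1a siRNA turned under median centring (-0.0096), and with values under 32 set to 32 (-0.0029), and without control replicate 3 the changes were -0.0744, 0.15 and 0.018. With control replicate 1 and Dcp2 siRNA replicate 2 left out they were 0.20, 0.50 and 0.29, not called (adjusted p = 0.582, 0.106 and 0.264, limma). The other probe sets of Dcp1b, 1444030_at and 1458614_at, read 4.9 on all 12 arrays. A rise of Dcp1b mRNA in eggs that had lost Dcp1a was therefore not detected, within what these probe sets can show.

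Edc4, the scaffold of the complex, was the steadiest of the tested members among arrays. Probe set 1426874_at read 6533, 6673 and 6645 after Dcp1a siRNA, 7463, 7156 and 8172 after Dcp2 siRNA and 7845, 9071 and 7275 after both, against 7132, 5576 and 5807 in control eggs. The arrays given only Dcp2 siRNA were above every control array, at the closest by 7156 against 7132 units. Those given both were above every control array and above every array given only Dcp1a siRNA. The groups did not overlap upward in 2.17% of tested probe sets for Dcp2 siRNA against control, in 12.9% for both against control and in 21.5% for both against Dcp1a siRNA. Relative to control, Edc4 averaged 108% after Dcp1a siRNA (84.3% to 138%), 124% after Dcp2 siRNA (96.7% to 158%) and 131% after both (102% to 167%). The log2 changes of 0.11, 0.31 and 0.39 each had an SE of 0.16, and none was called (adjusted p = 0.91, 0.426 and 0.153, limma). At an unadjusted p under 0.05 only the double knockdown passed, as 27.8% of all tested probe sets did there. The residual SD of Edc4 was 0.13 on the log2 scale, against 0.18 to 2.37 for the other tested members.

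The Edc4 changes with Dcp2 siRNA kept their sign under every setting tried, while the one after Dcp1a siRNA was -0.0071 under median centring. In the double knockdown the log2 change ranged from 0.30 to 0.50 over the planned settings, with adjusted p from 0.0513 to 0.409 (limma). With control replicate 1 and Dcp2 siRNA replicate 2 both left out it was 0.50 (adjusted p = 0.0436, limma), and after Dcp2 siRNA alone it was 0.46 (adjusted p = 0.0837, limma). Control replicate 1, at 7132, was the only control array near the treated ones. Against Dcp1a siRNA alone, the double knockdown differed by 0.28 ± 0.16 (SE; adjusted p = 0.255, limma).

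**Figure D3:**
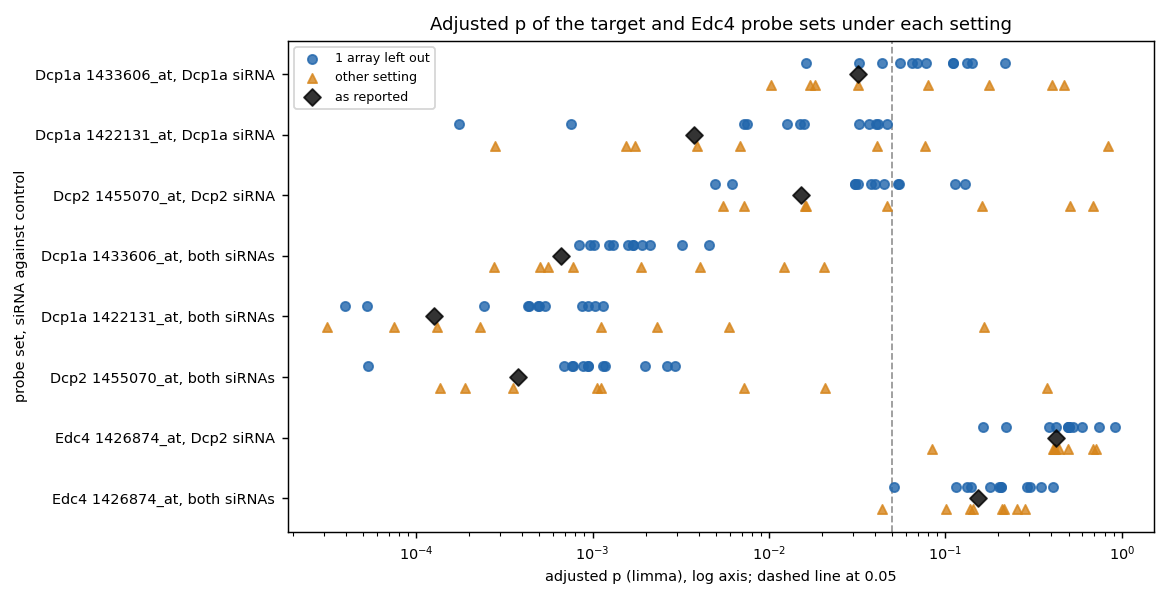
Adjusted p from limma (horizontal log axis) for target and Edc4 probe sets against control (vertical axis) as reported, with 1 array left out and under the other settings; the dashed line is at 0.05. Dcp1a 1433606_at in the double knockdown stays left of the line in all settings, the calls of the single knockdowns fall on both sides, and Edc4 lies to the right except for the double knockdown without 2 arrays (0.0436).

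Edc3, the other enhancer of decapping here, was represented by 1 probe set, 1433710_at. It read 4.9 on 11 arrays and 5 on Dcp2 siRNA replicate 3, so no level and no change of Edc3 could be measured. This does not show that Edc3 mRNA is absent from eggs, since a single probe set can fail to detect a transcript.

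Dcps, the scavenger enzyme, was measurable by 1424080_at on all 12 arrays and varied most among the controls. It read 128.3, 118.1 and 146.6 after Dcp1a siRNA, 91.6, 137 and 67.4 after Dcp2 siRNA and 91.2, 89.9 and 106.9 after both, against 201, 97.9 and 78.1 in control eggs. The control arrays spanned all values of the other groups except 67.4. Relative to control, Dcps was at 113% after Dcp1a siRNA (67.2% to 190%), 81.9% after Dcp2 siRNA (48.7% to 138%) and 82.9% after both (49.3% to 140%), with adjusted p of 0.933, 0.66 and 0.612 (limma). Without control replicate 1 the log2 changes after Dcp2 siRNA and after both changed sign, to 0.11 and 0.13. The 3 arrays of the double knockdown were all below the 3 given only Dcp1a siRNA, as in 27.1% of all tested probe sets, and the difference was not called (-0.45 ± 0.34, SE; adjusted p = 0.385, limma). Of its other probe sets, 1456571_at read between 8.1 and 11.1, and 1446979_at 4.9 or 5.

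The surrounding pathway was read from 3 lists by the brightest tested probe set of each gene. The first held activators of decapping and the 5′-to-3′ exonucleases: the Lsm ring and its partners Patl1 and Patl2, Ddx6, Eif4enif1, the Lsm14 and Pnrc proteins, and Xrn1 and Xrn2. Of 17 genes 16 were on the array and 14 were tested. None was called against control in any knockdown, with medians over the list of 0.09 after Dcp1a siRNA, -0.12 after Dcp2 siRNA and -0.19 after both. Over all tested probe sets the medians were 0.09, -0.11 and -0.02. The list median was close to these after either single siRNA, and further below after both. At an unadjusted p under 0.05, 1, 1 and 2 of the 14 passed, where 4.92%, 11.1% and 27.8% of all tested probe sets did. Xrn1, the cytoplasmic exonuclease that degrades decapped mRNA, had log2 changes of 0.61, 0.04 and 0.37. Ddx6, a helicase of mRNA storage and decapping, was the member called in any comparison. It read 423, 436.3 and 394.3 in the double knockdown, against 868.1, 720.7 and 778.1 after Dcp1a siRNA alone (-0.91 ± 0.24, SE; adjusted p = 0.0302, limma), where 12.1% of all tested probe sets were called. Control eggs, at 708.7, 609.5 and 388.3, and eggs given Dcp2 siRNA, at 445.5, 468 and 659.2, lay across the gap between those groups. The call for Ddx6 was lost when any array of either compared group was left out (adjusted p = 0.0504 to 0.106, limma), and under median centring, quantile normalization, the replicate block and no filter (0.0678, 0.071, 0.0606 and 0.116). Without control replicate 1 and Dcp2 siRNA replicate 2 it held (adjusted p = 0.0191, limma). The other tested Ddx6 probe sets changed by 0.06 and -0.49 and were not called.

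The second list held other enzymes that can act on mRNA caps, mostly of the Nudix family to which Dcp2 belongs. Of 9 genes 8 were on the array and only Nudt2 and Nudt12 were tested. Nudt2 read 94.7, 78.5 and 63.1 in the double knockdown, against 73.1, 52.5 and 49.3 in control eggs (0.44 ± 0.23, SE; adjusted p = 0.225, limma). The groups overlapped. For Nudt12 the values were 102, 93.2 and 116, against 99.5, 154 and 124.6 (-0.26 ± 0.19; adjusted p = 0.354, limma). Neither was called in any of the 6 comparisons. The nearest was Nudt2 in the double knockdown against Dcp1a siRNA (0.76 ± 0.23, SE; adjusted p = 0.0514, limma). In that comparison 8.27% of all tested probe sets were called higher. Without control replicate 1 and Dcp2 siRNA replicate 2 the changes were 0.61 and -0.42 (adjusted p = 0.0521 and 0.0993, limma).

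The third list held cap-binding proteins, of which 5 of 6 were on the array and 4 were tested. Eif4e2, a relative of the initiation factor eIF4E that binds caps and is known as a repressor of translation, was the only one called. It read 526.7, 655 and 496.5 in eggs given both siRNAs, against 129, 132.8 and 132.1 after Dcp1a siRNA, 142.7, 129 and 246.9 after Dcp2 siRNA and 151.2, 173.8 and 133.2 in control eggs. The double knockdown lay above the arrays of each other group. Taken group by group, it did not overlap upward with control in 12.9% of all tested probe sets, with Dcp1a siRNA in 21.5% and with Dcp2 siRNA in 16.2%. The share above all of these groups at once was not counted. The log2 change was 1.87 ± 0.24 against control, 2.08 ± 0.24 against Dcp1a siRNA and 1.75 ± 0.24 against Dcp2 siRNA (SE; adjusted p = 0.000983, 0.000383 and 0.00131, limma). Upward calls made up 6.62%, 8.27% and 6.12% of all tested probe sets in these comparisons. Eif4e2 also departed from additivity, by 1.96 ± 0.34 (adjusted p = 0.00976, limma), as 3.9% of probe sets did upward. All 4 calls of Eif4e2 held without control replicate 1 and Dcp2 siRNA replicate 2 (adjusted p up to 0.0235, limma). The other 4 Eif4e2 probe sets read at most 11.9 units and were not tested. Eif4e itself had a change of -0.30 in the double knockdown (adjusted p = 0.254, limma). For Ncbp2 the brightest probe set had -0.07 there. Another, chosen after its values were seen, was called lower against control (-0.78 ± 0.19; adjusted p = 0.0297, limma) and against Dcp1a siRNA (-0.70 ± 0.19; adjusted p = 0.0398, limma).

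**Figure D4:**
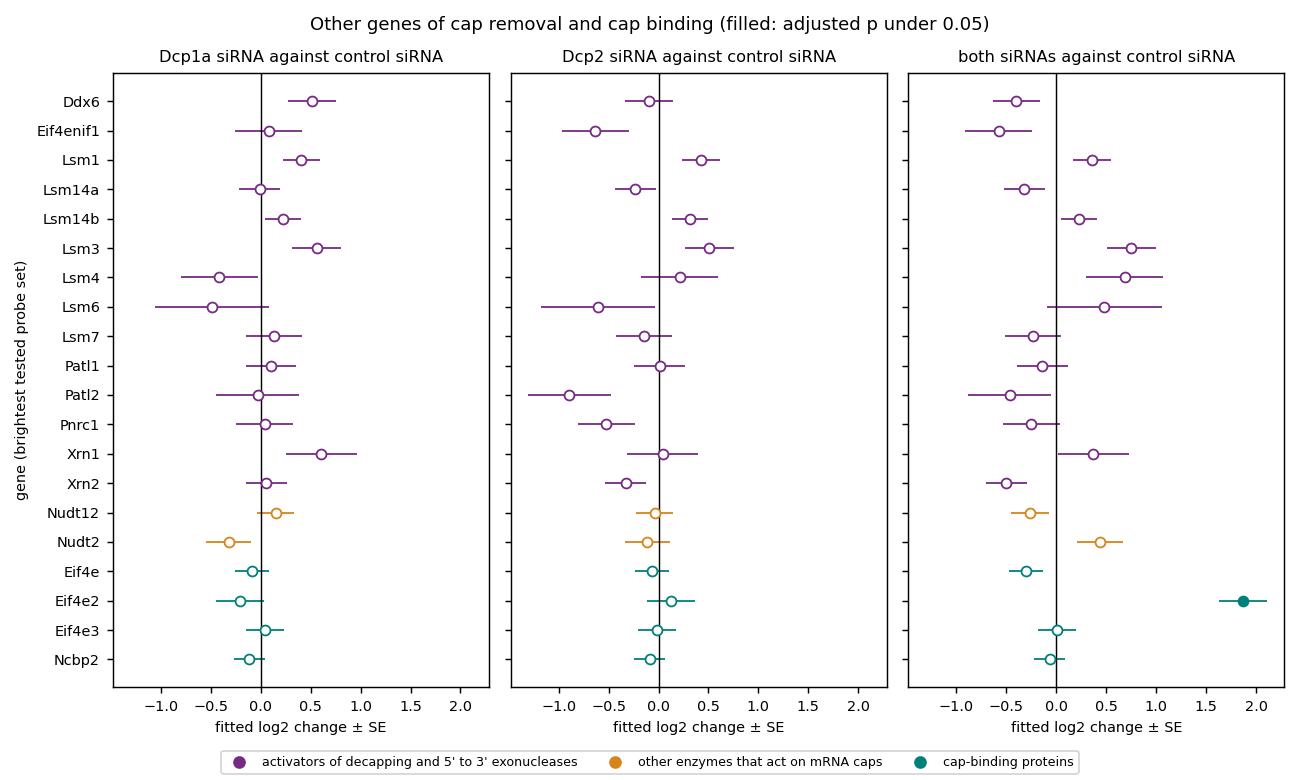
Fitted log2 change ± SE (horizontal axis) of the tested genes of the 3 lists (vertical axis, brightest probe set) after Dcp1a siRNA, Dcp2 siRNA and both, each against control; filled points have adjusted p under 0.05 (limma). The only filled point is Eif4e2 in the double knockdown, at 1.87.

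Genes with the most similar profiles were sought by the root mean square difference between centred log2 values over the 12 arrays, among 10448 other named probe sets. For Dcp2, whose own values deviated by 1.62 around their mean, the nearest were Zfp445, at 0.65, and Edrf1, at 0.72. Relative to its own mean, Zfp445 averaged 1.66 after Dcp1a siRNA, -1.04 after Dcp2 siRNA and -1.41 after both, against 0.79 in control eggs. Edrf1 averaged 1.40, -0.98 and -1.61, against 1.18, while Dcp2 itself averaged 1.61, -1.57 and -1.58, against 1.55. No profile came as near to that of Dcp1a, which deviated by 1.70, the nearest being Car10 at 1.08 and Msi2 at 1.24. For Edc4 (0.19) they were Phc2 at 0.08 and Shmt2 at 0.09, for Dcp1b (0.19) Mfhas1 and Nsrp1 at 0.10, and for Dcps (0.42) Phf20 at 0.15 and Pik3r1 at 0.18. These differences describe the 12 arrays only, and profiles that vary little are easily matched.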

How the data were processed

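Per the labels' protocols, egg RNA went through a small-sample labelling procedure before hybridisation. Intensities were deposited as the authors made them with GCRMA, per the submitters' processing notes, and the version was not stated there. This method models background from the probes' base content, equalises arrays and pulls weak signals towards a floor: 55.6% of values were at or under 5 units. Values are relative within an array, so total mRNA per egg was not measured. The number of arrays limits precision, and depth does not apply.

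The log2 of each intensity was used. After removal of 64 control probe sets from 45101, the filter passed 11593. Gene names came from the platform annotation, where 34945 probe sets had 1 symbol, 932 several and 9160 none, and the 6 members matched RefSeq symbols of GRCm38.p6. Groups were compared with limma 3.58.1 in R 4.3.3 (lmFit, eBayes without trend, 8 residual and 2.97 prior degrees of freedom), two-sided, with Benjamini-Hochberg adjustment over all tested probe sets. P-values weigh a difference of group means against the spread among pools of eggs. That spread is estimated over all 4 groups and drawn towards that of all tested probe sets. A fold is given as a bound where the dimmer group's mean or median was at or under log2 of 5. Named were the members, list genes called in any of the 6 comparisons (otherwise the pair with the smallest p in the double knockdown), and 2 genes of nearest profile per member. Xrn1, Eif4e and Ncbp2 were named beyond this rule. The members and lists were chosen with earlier results of these data known. The fit was tested on simulated data. Alternatives covered the filter, the floor, normalization, variance, replicate numbers and left-out arrays. No sequences of the probes, siRNAs or proteins were used here.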

Additional observations from a re-analysis of the deposited data

Results flagged for a closer look

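Eif4e2 was singled out because its change under both siRNAs differed from the sum of its single changes in a test of that difference. By limma, log2 levels departed from that sum by 1.96 ± 0.34 (SE; adjusted p = 0.00976). Over the other settings and without single arrays the departure was between 1.77 and 2.24, and adjusted p passed 0.05 only with no filter on dim probe sets (0.0636).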

How the results depend on the processing

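For 42 single results 837 alternative values were computed, of which 740 kept their direction and their side of the threshold, 68 lost the call, 3 gained it and 26 changed sign, none of these called with all arrays. With no filter on dim probe sets, 0, 0 and 3 member probe sets were called after Dcp1a siRNA, Dcp2 siRNA and both, against 2, 1 and 3. With log2 values under 5 set to 5, the numbers were 0, 0 and 1, and in the double knockdown 0 against Dcp1a siRNA and 1 against Dcp2 siRNA. With only the compared groups in the fit, 1 was called after Dcp1a siRNA and 0 after Dcp2 siRNA. The replicate block gave 1 after Dcp1a siRNA and changed no other count of members. Same-numbered arrays of different groups had deviations that correlated between -0.69 and 0.39 (median 0.09, against 0.02 for arrays with different numbers). Only 3 of 12 arrays correlated best with their own number. No pairing by number was seen, but with 3 arrays per group these values cannot tell whether same-numbered samples shared a batch. Without single arrays the counts ranged from 1 to 2 after Dcp1a siRNA and from 0 to 1 after Dcp2 siRNA, and stayed at 3 after both. With control replicate 1 and Dcp2 siRNA replicate 2 left out, 3 were called after Dcp2 siRNA, where 2419 of all 11593 tested probe sets were. They were Dcp2 1455070_at and, in opposite directions, Dcp1a 1422131_at and 1431933_a_at.

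Over all tested probe sets the call counts differed more. After Dcp1a siRNA 6 were called, against 627 without those 2 arrays and between 1 and 372 without single arrays, and after Dcp2 siRNA 2, against 2419 and between 0 and 223. After both 1011 were called, against 3215 without the 2 arrays, 277 with only the compared groups, 527 of 45037 with no filter and between 444 and 2451 without single arrays. Values that changed sign under median centring were those of Dcp2 (-0.0545), Dcp1b (-0.0096) and Edc4 (-0.0071) after Dcp1a siRNA and of Dcp1a 1433606_at after Dcp2 siRNA (0.13). Quantile normalization turned Dcp2 after Dcp1a siRNA (-0.0126) and Dcp1a after Dcp2 siRNA (0.0267), and the floor turned Dcp1b after Dcp1a siRNA (-0.0029). Without the 2 arrays the reversed values were 1.31 and 1.03 for Dcp1a 1431933_a_at after Dcp1a siRNA and both, -0.15 for Dcp2 after Dcp1a siRNA, 0.0653 for Dcp1a 1433606_at after Dcp2 siRNA and 0.13 for Dcps after both. Leaving out single arrays, reversed results ranged from -2.20 to 1.31 and -2.48 to 1.03 (Dcp1a 1431933_a_at, Dcp1a siRNA and both), -0.91 to 2.60 (the same, Dcp2 siRNA), -0.19 to 0.52 (Dcp2, Dcp1a siRNA), -0.0744 to 0.20 (Dcp1b, Dcp1a siRNA), -0.35 to 0.26 (Dcp1a 1433606_at, Dcp2 siRNA), and for Dcps -0.10 to 0.58, -0.57 to 0.11 and -0.55 to 0.13. The cause was not tested. Signal near the floor limits Dcp2, Dcp1b, Edc3 and Dcp1a 1422131_at.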
